A study of Mus musculus with 12 samples.

Results

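The genes described here are 10 members of the PARP family, the ADP-ribosyltransferases that consume NAD+, among the 55401 genes listed for every sample. They were chosen by name, and 3 sets were kept apart by their known roles: the DNA-damage PARPs (Parp1, Parp2 and Parp3), the interferon-linked PARPs (Parp9, Parp10, Parp12 and Parp14) and Parp4, Parp6 and Parp16. RNA-seq was performed on adult neural stem/progenitor cells (aNSPCs) isolated from the forebrains of C57BL/6 mice of 8 to 10 weeks and grown with 20 ng/mL EGF and 20 ng/mL FGF-2. Dividing cells were compared with cells that received 1 µM retinoic acid together with 5 µM forskolin to differentiate, and in both conditions NAD+ was either absent (Ctrl) or present at 1 mM. There were 3 samples in each of these 4 groups, 12 in all, and no group carried a genetic change that the labels name. The sample titles name the NAD+ groups, and the groups used here follow them, while a treatment field lists all 12 samples as untreated. The tissue field gives neural stem cells, although the extraction text speaks of brain samples. The study calls the 3 samples of a group biological replicates, but the labels do not say whether they came from separate cultures or mice, so the p-values below measure the spread between these samples only.

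ADP-ribosyltransferases split NAD+ into nicotinamide and ADP-ribose and attach the ADP-ribose to proteins or nucleic acids. Parp1 and Parp2 build chains of poly(ADP-ribose) at DNA strand breaks, which recruit repair proteins, whereas most other family members add single ADP-ribose units. Several of the latter are induced by interferon and act in antiviral responses, and in neural progenitors Parp1 is known for its part in the repair of DNA damage that arises while cells divide.

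Promoter sequences from RefSeq (GRCm38.p6), given for each gene as 250 bases before its start and 50 after, matched 7 of the 10 members and not Parp9, Parp10 and Parp14. The stretches below lie before the start and outside annotated exons. They belong to Parp1, which fell with differentiation, to Parp12, the interferon-linked gene with the highest level, and to Parp4, whose window held interferon-stimulated response element cores. They lie at chr1:180568641-180568890 on the plus strand, chr6:39118350-39118472 on the minus strand and chr14:56575426-56575618 on the plus strand. Capitals mark GC boxes (GGGCGG, here read on the other strand) and, in Parp4, the core of the interferon-stimulated response element (GAAA repeated after any 2 bases).
Parp1: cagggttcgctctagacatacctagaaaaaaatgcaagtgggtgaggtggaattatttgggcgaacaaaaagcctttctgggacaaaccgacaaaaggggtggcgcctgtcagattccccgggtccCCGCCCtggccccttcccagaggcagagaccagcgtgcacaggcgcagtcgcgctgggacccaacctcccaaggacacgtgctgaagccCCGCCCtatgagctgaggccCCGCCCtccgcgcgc
Parp12: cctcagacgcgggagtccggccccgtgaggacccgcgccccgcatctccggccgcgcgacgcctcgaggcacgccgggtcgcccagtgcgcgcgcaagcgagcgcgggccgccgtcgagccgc
Parp4: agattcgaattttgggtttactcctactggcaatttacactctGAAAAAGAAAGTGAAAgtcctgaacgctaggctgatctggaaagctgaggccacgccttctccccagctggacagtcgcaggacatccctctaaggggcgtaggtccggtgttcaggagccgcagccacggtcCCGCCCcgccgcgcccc

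The Parp1 stretch held 3 GC boxes, with a further one after the start, and the windows of Parp2, Parp4 and Parp6 held GC boxes as well. A GC box was present in 35.7% of all 32851 RefSeq promoters of this length when both strands were read. In Parp4 the capitals cover 2 overlapping matches of the interferon core, at -150 and -144 from the start, and 3.44% of all promoters held at least 1 match. Of the 7 members with a sequence, no other window held that core, and the GAS motif (TTCNNNGAA), which 8.3% of promoters held, occurred only across the RefSeq start of Parp16, at -4. That window, at chr9:65214440-65214739, lies inside the gene as positioned below, whose start is at 65195353. The E2F-like letters TTTCCCGC and TTTGGCGC occurred in none of the 7 windows, against 1.07% and 0.514% of all promoters. The Parp12 window held none of these motifs and had 73.7% G and C bases and 46 CpG, the most of the 7 windows. The others had 50.7% (Parp16) to 67.7% (Parp6) and 9 to 33 CpG in these same windows. The median promoter had 52.7% and 7 CpG. These matches are descriptions of letters and were not tested as sites.

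Levels are given as FPKM, read fragments counted on a gene per kilobase of its length and relative to all mapped fragments, so that they can be compared between genes per length. How deeply each sample was sequenced is unknown, as the deposited values are rounded to 0.01 and hold no read counts, and the summed FPKM of a sample, which does not measure its depth, lay between 308828 and 363330. The highest sum belonged to proliferating Ctrl replicate 1, against at most 314683 in the other proliferating samples. This sample also listed the fewest genes above 0 (21695, against 21942 to 24022 elsewhere). Fits without it are given below for some of the PARP genes, whereas the gene lists, sums and likeness are given only with it. Of the markers of the culture, the summed level of 4 neural stem/progenitor genes (Nes, Sox2, Pax6 and Egfr) lay between 318 and 329 in proliferating Ctrl and between 183 and 190 in differentiation Ctrl, and all 4 had a mean of at least 1 in each group. The lower sum came from Sox2 (means of 225 and 147 in these groups) and Nes (68.8 and 9.92). The samples of both groups overlapped for Egfr (28.2 and 25.9) and for Pax6 (3.02 and 3.20), whose mean was higher in differentiation Ctrl. The 6 microglia genes summed to at most 0.33 in any sample, and the 4 endothelial genes to at most 0.19.

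Parp1, the main sensor of DNA strand breaks (ENSMUSG00000026496, chromosome 1, 180568924 to 180601254, mm10), had by far the highest level of the 10 genes in every sample. In proliferating Ctrl cells its FPKM was 24.19, 30.77 and 34.03 in the 3 samples, and in differentiation Ctrl cells it was 18.03, 17.69 and 19.56. With NAD+ it was 27.92, 33.21 and 33.69 under proliferating conditions and 14.55, 15.88 and 15.03 under differentiation conditions. All 6 differentiation samples therefore lay below all 6 proliferating samples, and within differentiation the NAD+ samples lay below the Ctrl samples. Parp2, which acts beside Parp1 in the same repair steps (ENSMUSG00000036023, chromosome 14, 50807841 to 50821301), had an FPKM of 6.18, 6.56 and 7.24 in proliferating Ctrl and of 5.87, 6.03 and 5.77 in differentiation Ctrl. Its FPKM was 7.16, 8.97 and 8.28 in proliferating NAD+ cells and 4.91, 5.21 and 5.37 in differentiation NAD+ cells. The Parp2 samples kept this order over a narrower range, and the 2 proliferating groups overlapped for both genes.

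Parp3, a mono-ADP-ribosyltransferase of double-strand break repair (ENSMUSG00000023249, chromosome 9, 106470322 to 106476949, minus strand), went the other way with differentiation. Its FPKM was 3.12, 2.55 and 2.27 in proliferating Ctrl and 4.43, 3.33 and 3.93 in differentiation Ctrl. With NAD+ it was 2.28, 2.11 and 2.23 under proliferating conditions and 3.02, 2.66 and 3.74 under differentiation conditions. Every differentiation Ctrl sample lay above every proliferating sample, whereas the NAD+ and Ctrl samples of a condition overlapped.

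Among the interferon-linked PARPs, Parp12 (ENSMUSG00000038507, chromosome 6, 39086410 to 39118349, minus strand), an interferon-induced mono-ADP-ribosyltransferase, had the highest level. Its FPKM was 3.02, 3.75 and 4.78 in proliferating Ctrl, and 5.95, 5.24 and 5.75 in differentiation Ctrl. It was 3.72, 4.88 and 4.31 in proliferating NAD+ cells and 6.30, 6.81 and 6.43 in differentiation NAD+ cells, so that the differentiation groups lay above the proliferating ones and, within differentiation, NAD+ above Ctrl. Parp14, a large enzyme with macrodomains that is known as a co-activator of STAT6 (ENSMUSG00000034422, chromosome 16, 35832874 to 35871544, minus strand), was at 0.17, 0.20 and 0.15 FPKM in proliferating Ctrl and at 0.59, 0.79 and 0.60 in differentiation Ctrl. In the NAD+ groups it was at 0.27, 0.25 and 0.16 and at 0.79, 0.95 and 0.65. Low as these levels were, the 6 differentiation samples were all above the 6 proliferating samples. Parp10, a mono-ADP-ribosyltransferase (ENSMUSG00000063268, chromosome 15, 76231174 to 76243441, minus strand), showed the same separation, with an FPKM of 0.36, 0.19 and 0.12 in proliferating Ctrl, and of 0.76, 1.06 and 0.70 in differentiation Ctrl. With NAD+ it was at 0.24, 0.31 and 0.22 under proliferating conditions and at 0.95, 0.94 and 0.85 under differentiation conditions. Parp9, which works as a pair with the ubiquitin ligase Dtx3l (ENSMUSG00000022906, chromosome 16, 35938470 to 35972605), stayed within 1.26 to 2.01 FPKM in all 12 samples. Its FPKM was 1.61, 1.54 and 1.71 in proliferating Ctrl, 1.26, 1.53 and 1.32 in proliferating NAD+, 1.66, 2.01 and 2.00 in differentiation Ctrl and 1.96, 1.96 and 1.43 in differentiation NAD+ cells.

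**Figure D1:**
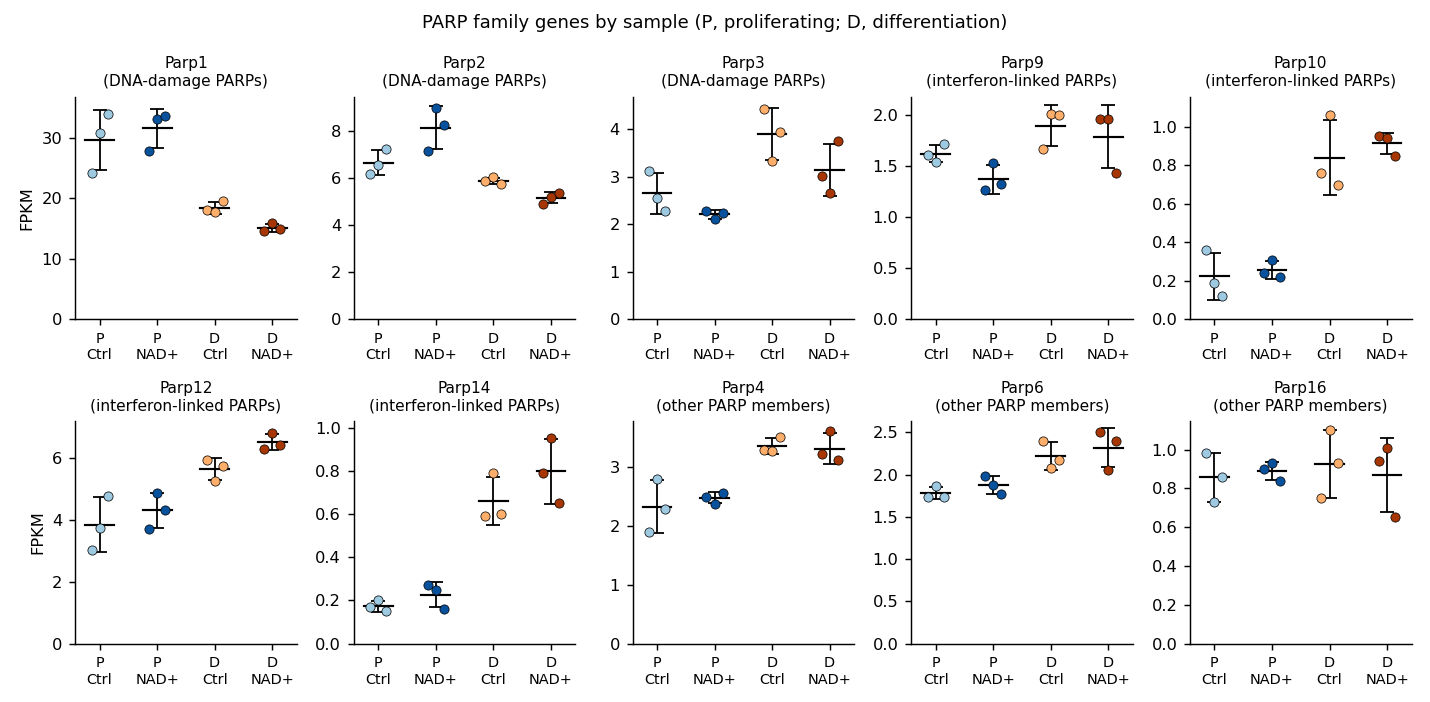
FPKM of the 10 PARP genes in each sample, with 1 panel per gene, the 4 groups on the horizontal axis, points for the 3 samples of a group and bars for the mean ± SD. Parp1 lies between 14.55 and 19.56 in the 6 differentiation samples and between 24.19 and 34.03 in the 6 proliferating samples, whereas Parp10, Parp12 and Parp14 are higher in all differentiation samples than in any proliferating sample.

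The remaining members were expressed at low to middling levels. Parp4, the PARP of vault particles (ENSMUSG00000054509, chromosome 14, 56575619 to 56659794), had an FPKM of 1.89, 2.79 and 2.28 in proliferating Ctrl and of 3.28, 3.26 and 3.50 in differentiation Ctrl. Parp6, a mono-ADP-ribosyltransferase linked to dendrite growth in neurons (ENSMUSG00000025237, chromosome 9, 59617284 to 59650285), had 1.74, 1.86 and 1.74 and then 2.40, 2.08 and 2.17 in the same groups. For both genes the Ctrl groups did not overlap. Parp16, which sits in the membrane of the endoplasmic reticulum (ENSMUSG00000032392, chromosome 9, 65195353 to 65239224), was at 0.98, 0.73 and 0.86 in proliferating Ctrl and at 0.75, 1.10 and 0.93 in differentiation Ctrl, which overlapped. The NAD+ samples of these 3 genes lay between 2.37 and 2.56, 1.77 and 1.98, and 0.84 and 0.93 FPKM under proliferating conditions, and between 3.11 and 3.6, 2.06 and 2.50, and 0.65 and 1.01 under differentiation conditions, in the order Parp4, Parp6 and Parp16.

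Ranked by mean FPKM in proliferating Ctrl, the order was Parp1 (29.7 ± 5.01, SD, n = 3), Parp2 (6.66 ± 0.537), Parp12 (3.85 ± 0.884), Parp3, Parp4, Parp6, Parp9, Parp16, Parp10 and Parp14 (0.173 ± 0.0252). Neighbours did not separate between Parp12 and Parp3, Parp3 and Parp4, and Parp10 and Parp14. In differentiation NAD+ cells Parp12 (6.51 ± 0.265) stood above Parp2 (5.16 ± 0.234) without overlap, whereas in differentiation Ctrl these 2 genes overlapped (5.65 ± 0.366 and 5.89 ± 0.131).

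To compare the DNA-damage with the interferon-linked PARPs, the levels of each set were summed within each sample. The 3 DNA-damage genes summed to between 33.5 and 43.5 FPKM in proliferating Ctrl, and the 4 interferon-linked genes to between 5.16 and 6.76. In differentiation Ctrl the sums were between 27.05 and 29.3 and between 8.96 and 9.10. The ratio of the first sum to the second was therefore 6.44 to 7.02 in proliferating Ctrl, 6.35 to 7.35 in proliferating NAD+, 2.97 to 3.23 in differentiation Ctrl and 2.23 to 2.58 in differentiation NAD+ cells. The sums and their ratio are descriptions, and each set rests on 1 gene, since Parp1 made up 72.2% to 78.2% of the DNA-damage sum in proliferating Ctrl and Parp12 58.5% to 70.7% of the interferon-linked sum. Parp1 alone held 55.9% to 61.7% of the summed FPKM of all 10 members in proliferating Ctrl, 41.2% to 43.6% in differentiation Ctrl and 37.2% to 38.7% in differentiation NAD+ cells.

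**Figure D2:**
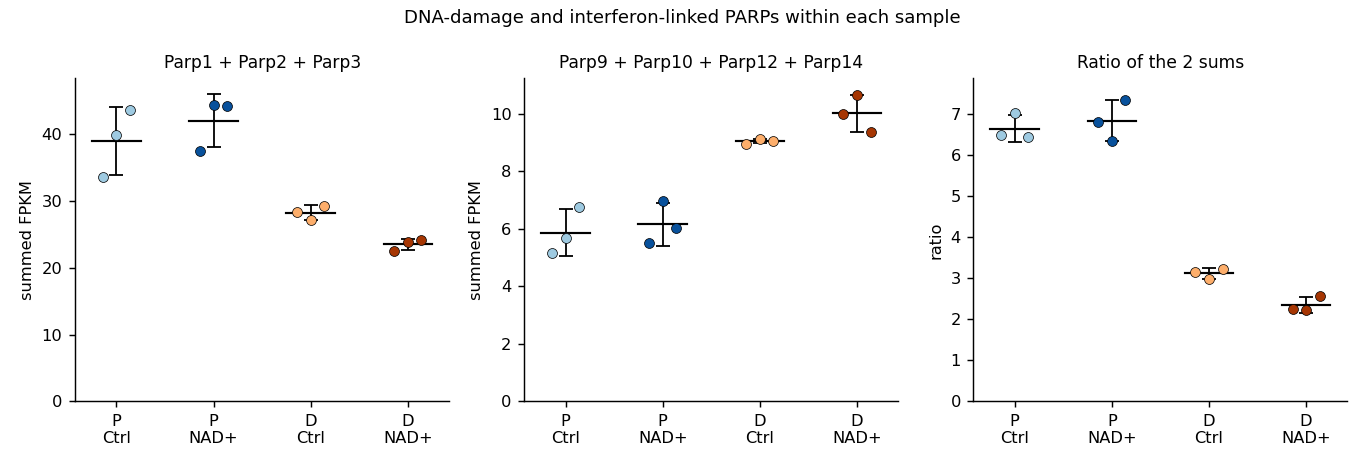
Summed FPKM of the DNA-damage PARPs (left) and the interferon-linked PARPs (middle) and the ratio of both sums (right) in each sample, with points for the 3 samples of each of the 4 groups and bars for the mean ± SD. The ratio is 6.35 or more in all proliferating samples, at most 3.23 in differentiation Ctrl and at most 2.58 in differentiation NAD+ samples.

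The first comparison asked how the PARP genes differed between differentiation and proliferation in the absence of NAD+. In the limma fit on log2(FPKM + 0.1), where the added 0.1 shrinks the fold changes of low genes, 7 of the 10 members differed at an adjusted p under 0.05, 6 of them higher and 1 lower in differentiation cells. The background was high: 56.7% of all 19498 tested genes were called, 25.0% higher and 31.6% lower. Parp14 rose by 1.47 on the log2 scale (SE 0.22, limma adjusted p 0.000174) and Parp10 by 1.59 (SE 0.27, limma adjusted p 0.00044), which is 3.81-fold and 3.76-fold as a ratio of mean FPKM. Parp12 rose by 0.56 (SE 0.15, limma adjusted p 0.00831), so that 3 of the 4 interferon-linked PARPs rose. The fourth, Parp9, had a difference of 0.21 (95% confidence interval -0.13 to 0.54), with a limma adjusted p of 0.266. In bulk RNA a change in the share of cells that carry a transcript and a change in its amount per cell cannot be told apart.

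The DNA-damage PARPs did not move as a set in this comparison. Parp1 fell by 0.67 (SE 0.12, limma adjusted p 0.000573), to 0.621 of its level in proliferating cells. Parp3 rose by 0.54 (SE 0.16, limma adjusted p 0.0123), and this call was lost, at a limma adjusted p of 0.053 or 0.0514, without differentiation Ctrl replicate 1 or proliferating Ctrl replicate 3. Parp2 was at -0.17 (95% confidence interval -0.38 to 0.04, limma adjusted p 0.148), although its groups did not overlap. Such separation was found for 8 of the 10 members and for 61.7% of all tested genes. Of the remaining members, Parp4 rose by 0.53 (SE 0.13, limma adjusted p 0.00547), Parp6 by 0.30 (SE 0.11, limma adjusted p 0.042), a call that held in 9 of 20 settings, and Parp16 was at 0.10 (limma adjusted p 0.703).

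Without proliferating Ctrl replicate 1, the sample that stood apart, Parp1 was at -0.81, Parp3 at 0.66, Parp10 at 1.88, Parp12 at 0.40, Parp14 at 1.46 and Parp4 at 0.39. Each of these was still called, and Parp6 was not (limma adjusted p 0.0666). The scaling between samples mattered most for Parp1, which was at -0.54 with median-ratio scaling and at -0.29 with quantile normalization (limma adjusted p 0.0453). The 2 conditions come from 2 separately deposited tables, so the comparison rests on FPKM being scaled within each sample, and culture batch and condition cannot be told apart.

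The same contrast was computed in the NAD+ samples of the fit, a comparison chosen after the Ctrl values had been seen. Of the 10 members, 8 were called there, with 58.4% of all tested genes called. Parp1 was at -1.05, Parp2 at -0.64, Parp3 at 0.48, Parp10 at 1.51, Parp12 at 0.59, Parp14 at 1.46, Parp4 at 0.40 and Parp6 at 0.29. Parp9 was at 0.35 (limma adjusted p 0.0684) and Parp16 at -0.05.

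**Figure D3:**
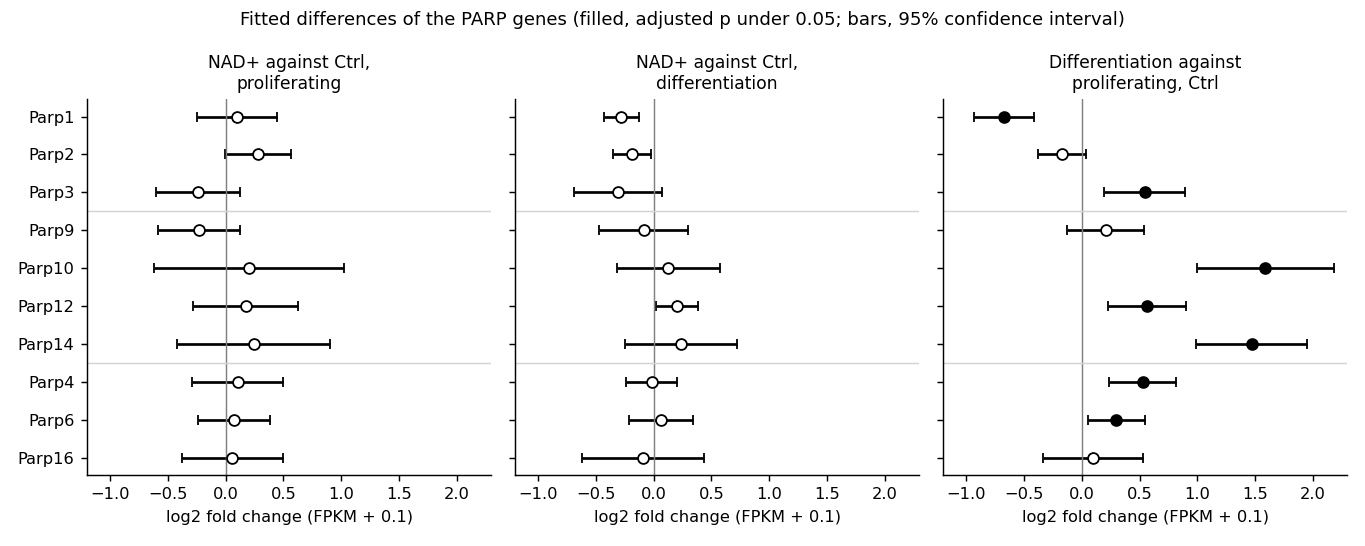
Fitted log2 fold change of FPKM + 0.1 for each of the 10 PARP genes (rows) in 3 comparisons, with bars for the 95% confidence interval and filled points for an adjusted p under 0.05. Filled points occur only in the comparison of differentiation with proliferating Ctrl cells, where Parp1 lies at -0.67 and Parp10 and Parp14 lie at 1.59 and 1.47.

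The next comparison asked whether NAD+ changed the PARP genes in proliferating cells. No member was called by limma, and 0 of the 10 had an unadjusted p under 0.05, against 0.145% and 15.4% of the 18597 tested genes. The fold changes lay between -0.24 (Parp3) and 0.28 (Parp2) on the log2 scale, with limma adjusted p from 0.327 to 0.907. Parp2 had a ratio of means of 1.22 and a 95% confidence interval of -0.002 to 0.57. Parp9 was the only member whose groups did not overlap, with all NAD+ samples lower, a separation found for 8.59% of tested genes in this direction, and its difference was -0.23 (limma adjusted p 0.494). The exact permutation p for Parp9 was 0.10, two-sided, which is the smallest that 3 samples against 3 allow. Parp1 was at 0.10 with a 95% confidence interval of -0.25 to 0.45, and without proliferating Ctrl replicate 1 it was at -0.04. The intervals of the low genes Parp10 and Parp14 were wide, at -0.62 to 1.02 and -0.42 to 0.91.

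Under differentiation conditions NAD+ was again compared with Ctrl. No member was called at an adjusted p under 0.05 by limma, against 6.92% of the 19611 tested genes, and 3 of the 10 had an unadjusted p under 0.05, against 24.2%. These were Parp1, Parp2 and Parp12, whose groups also did not overlap. Parp1 was 0.822 of its Ctrl level, at -0.28 on the log2 scale (SE 0.06, 95% confidence interval -0.43 to -0.13, limma adjusted p 0.0513). With a minimum mean FPKM of 1 its limma adjusted p was 0.0385, and it was called in this 1 of 14 settings. Parp2 was at -0.19 (SE 0.07, limma adjusted p 0.16) and Parp3 at -0.31 (SE 0.16, limma adjusted p 0.301). Parp12 was at 0.20 (SE 0.08, limma adjusted p 0.169), a ratio of means of 1.15. Groups did not overlap in 21.1% of tested genes in the lower direction and in 9.68% in the higher direction. For Parp1, Parp2 and Parp12 the exact two-sided permutation p was 0.10, again the smallest possible.

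The other interferon-linked PARPs showed no difference past the test with NAD+ under differentiation conditions. Parp14 was at 0.24 (95% confidence interval -0.25 to 0.72), Parp10 at 0.13 (-0.32 to 0.57) and Parp9 at -0.09 (-0.47 to 0.30), the last turning to 0.02 with quantile normalization. Without single samples Parp14 lay between 0.11 (without differentiation NAD+ replicate 2) and 0.36 (without NAD+ replicate 3), and Parp10 between 0.02 (without differentiation Ctrl replicate 3) and 0.29 (without Ctrl replicate 2). Parp6 was at 0.06. Parp4 and Parp16 were at -0.02 and -0.09, and both changed sign with quantile normalization. The median over all tested genes was -0.09, and of the genes called, 32.8% were higher, or 53.6% with median-ratio scaling.

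Whether the response to NAD+ differed between the conditions was tested as a contrast of both effects. No member was called by limma, against 0.467% of tested genes, and 2 of the 10 had an unadjusted p under 0.05, against 15.5%. Parp2 had the larger difference, at -0.47 (95% confidence interval -0.77 to -0.17, limma adjusted p 0.148), and Parp1 was at -0.38 (-0.75 to -0.01, limma adjusted p 0.311). Without proliferating Ctrl replicate 1, Parp1 was at -0.24 (limma adjusted p 0.373) and Parp2 at -0.42 (limma adjusted p 0.162). The median of all genes in this contrast was itself at -0.16 and moved to -0.02 with either rescaling, under which Parp2 was at -0.32 or -0.30 and Parp1 at -0.23 or -0.32. The 4 interferon-linked PARPs lay between -0.08 and 0.14.

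The genes that work with the PARPs were described as lists, by counts and medians without a test of the list. Of 11 partners and erasers of ADP-ribosylation, 7 were lower and 2 higher in differentiation than in proliferating Ctrl cells, with a median of -0.31 against -0.06 over all genes, of which 56.7% were called. Hpf1, which directs Parp1 and Parp2 to serine residues, fell by 0.96 (limma adjusted p 3.2e-05), from a mean FPKM of 7.71 ± 1.15 to 3.89 ± 0.265 (SD, n = 3). Adprs, which removes ADP-ribose from serine, fell by 0.67, and Rnf146, a ubiquitin ligase that reads poly(ADP-ribose), by 0.55. Parg, the main eraser of poly(ADP-ribose) chains, fell by 0.30 (limma adjusted p 0.0301). Macrod1, a macrodomain hydrolase, rose by 0.87, and Dtx3l, the partner of Parp9, rose by 0.45 (limma adjusted p 0.0256), from 0.863 ± 0.115 to 1.21 ± 0.0608 FPKM. Dtx3l and Parp9 lie head to head on opposite strands of chromosome 16 and share 458 exon bases. Since the strand setting of the counting is not given in the sources used here, reads in that stretch cannot be told apart. Exon bases shared with a neighbour on the opposite strand also occur in Parp4 (335, with Gm16573) and Parp3 (20, with Rrp9). On the same strand they occur in Parp10 (205, with Plec), Parp14 (110, with Gm49730) and Parp1 (7, with Mir6904). There no strand setting would tell the reads apart.

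With NAD+ under differentiation conditions, 1 of these 11 genes was called, against 6.92% of all tested genes. It was Chd1l, a chromatin remodeller that binds poly(ADP-ribose), which fell by 0.34 (limma adjusted p 0.0431). Hpf1 was at -0.04, Parg at 0.26 and Dtx3l at -0.11, all with limma adjusted p above the threshold. Of 6 further family genes, Parp8 rose by 0.53 with differentiation in Ctrl cells, and Parp11 fell by 0.65 and the tankyrase gene Tnks2 by 0.29. Of all tested genes 56.7% were called in that comparison, 25.0% higher and 31.6% lower. With NAD+ none of the 6 was called by limma in either condition, against 0.145% of all tested genes under proliferating and 6.92% under differentiation conditions. An unadjusted p under 0.05 was found for 1 of them under proliferating conditions (15.4% of all tested genes) and for 0 under differentiation conditions (24.2%).

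Of 13 genes of break and base excision repair, the pathway in which Parp1 acts, 8 were lower and 1 higher in differentiation than in proliferating Ctrl cells, with a median of -0.61, where 56.7% of all tested genes were called and 31.6% were lower. Ung, the uracil glycosylase, fell by 3.22, Lig1, the ligase that joins Okazaki fragments, by 3.20 and Fen1, the flap endonuclease, by 2.69, while Nthl1, a glycosylase of oxidised bases, rose by 0.64. Xrcc1, the scaffold protein that binds the chains made by Parp1, was at -0.61 (limma adjusted p 5.02e-05). All 11 replication genes were lower, with a median of -3.16, and their summed level was 293 to 382 FPKM in proliferating Ctrl and 37.6 to 39.9 in differentiation Ctrl. Their part in the lower Parp1 level was not tested. With NAD+ under differentiation conditions 3 of the 13 repair genes were lower and none higher, against 6.92% of all tested genes called. Among them were Nthl1 at -0.73 and Apex1, the abasic site endonuclease, at -0.40 (limma adjusted p 0.0147). In the same comparison 0 of 11 replication genes were called by limma, and 3 of them had an unadjusted p under 0.05, against 24.2% of all tested genes. The median of these 11 was -0.29, against -0.09 over all genes. Of the 11, 10 lay below 0, as did 12119 of all 19611 tested genes.

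Of 26 genes of interferon signalling and response, 22 passed the filter on low values. In differentiation against proliferating Ctrl cells, 5 of the 22 were higher and 1 lower, with a median of 0.04, against 25.0% higher and 31.6% lower over all tested genes. Ifit3, an antiviral interferon-induced gene, rose by 1.65, Jak1, a kinase of the interferon receptors, by 0.89 and Irf9, a subunit of the complex that binds the interferon response element, by 0.59. Bst2, a membrane protein that tethers viruses, fell by 0.66 (limma adjusted p 0.0215).

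With NAD+ under differentiation conditions 5 of the 22 interferon genes were higher and none lower, with a median of 0.43 against -0.09 over all genes, of which 6.92% were called in either direction. Bst2 rose by 1.54 (limma adjusted p 0.0128), Ifit3 by 0.77 and Ddx58, a sensor of viral RNA, by 0.71. Of the 22, 11 had an unadjusted p under 0.05, against 24.2% of all tested genes. In the same samples limma called 0 of the 4 interferon-linked PARPs, and their median was 0.165. Of these 4, 1 (Parp12) had an unadjusted p under 0.05, against 24.2% of all tested genes. In proliferating cells limma called 0 of the 22 genes with NAD+, and 3 of them had an unadjusted p under 0.05, against 0.145% and 15.4% of all tested genes. The median of the 22 was 0.27 there, against 0.07 over all genes. Of the 22, 20 lay above 0, as did 11104 of all 18597 tested genes. For the difference between the conditions limma called 0 of the 22 as well, against 0.467% of all tested genes. An unadjusted p under 0.05 was found for 6 of the 22, against 15.5%.

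**Figure D4:**
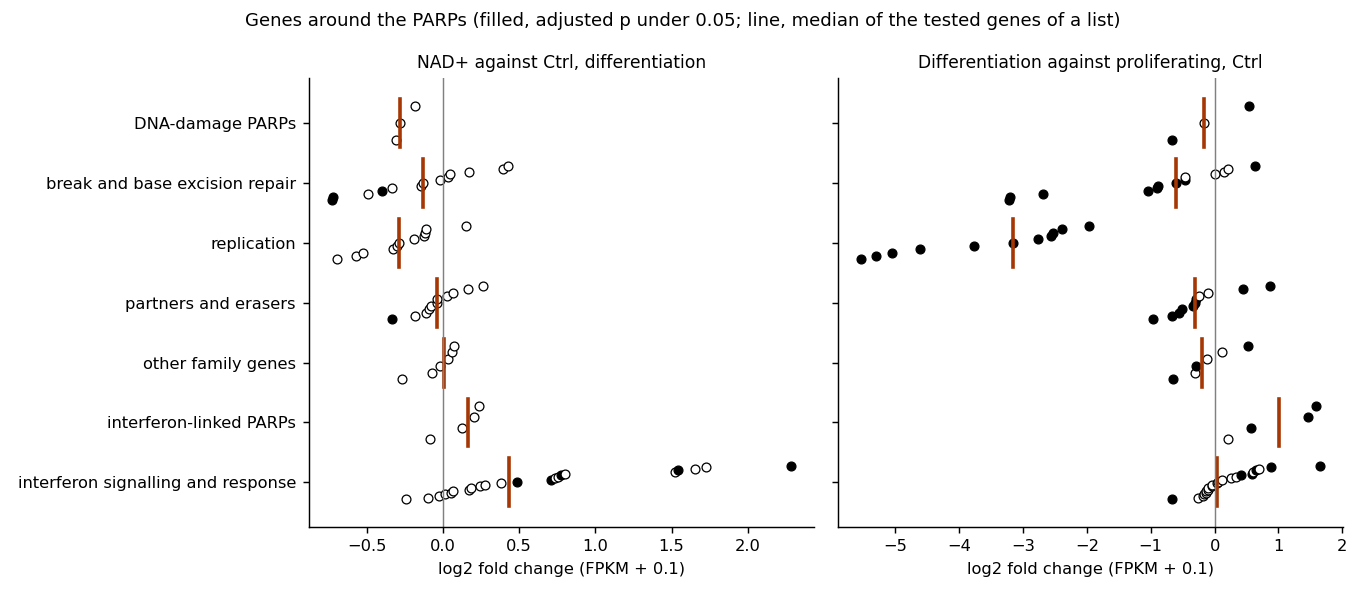
Log2 fold change of FPKM + 0.1 for each tested gene of 7 lists (rows) with NAD+ under differentiation conditions (left) and in differentiation against proliferating Ctrl cells (right), with filled points for an adjusted p under 0.05 and a line at the median of each list. The interferon signalling and response genes have a median of 0.43 on the left and 0.04 on the right, and the replication genes have a median of -3.16 on the right.

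The summed level of 5 astrocyte genes was 267 to 360 FPKM in proliferating Ctrl, 826 to 920 in differentiation Ctrl and 1217 to 1255 in differentiation NAD+ cells, but these genes did not all move the same way. With differentiation in Ctrl cells 3 of the 5 rose, led by Gfap, the astrocyte filament gene (4.96 on the log2 scale), and S100b, a calcium-binding protein, fell by 0.78, against 56.7% of all tested genes called. With NAD+ under differentiation conditions Gfap rose by 0.72 and Slc1a2, a glutamate transporter, by 0.26. Aldh1l1, a folate enzyme, fell by 0.61 (limma adjusted p 0.00494), and 6.92% of all tested genes were called. Aqp4, a water channel, was not called, at -0.31 (limma adjusted p 0.0733), with all NAD+ samples lower. S100b was not called either, at 0.17 (limma adjusted p 0.196), with all NAD+ samples higher. Such separation was found for 21.1% of tested genes in the lower and 9.68% in the higher direction. The 5 oligodendrocyte lineage genes summed to 326 to 366, 217 to 233 and 149 to 156 in the same groups, and the 5 neuron genes to between 21.9 and 35.0 in all of them. Single genes did not all follow these sums. With differentiation in Ctrl cells 3 oligodendrocyte lineage genes were called higher and 1 lower, and 1 neuron gene higher and 0 lower, against 25.0% and 31.6% of all tested genes. The fitted differences of the 5 neuron genes lay above 0 for 3 and below 0 for 2. Dcx, a neuron gene above 0, had a mean of 1.49 FPKM in proliferating Ctrl and 4.06 in differentiation Ctrl. How far the PARP genes follow the makeup of the cultures was not tested.

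The genes whose pattern over the 12 samples was most like that of Parp1 were Kpnb1, Smarcc1 and Ncl, with a mean absolute difference of 0.05, 0.06 and 0.06 on the log2 scale after centring, out of 12927 candidates with a mean FPKM of at least 1. Kpnb1, a nuclear import receptor, had mean levels of 62.6, 67.5, 38.0 and 31.0 FPKM in proliferating Ctrl, proliferating NAD+, differentiation Ctrl and differentiation NAD+ cells, against 29.7, 31.6, 18.4 and 15.2 for Parp1. The genes most like Parp14 were Camk2d, Soat1 and Entpd5, at 0.13, 0.14 and 0.15, which is a looser likeness. Soat1, which esterifies cholesterol, had mean levels of 9.71, 11.03, 24.1 and 28.4 FPKM in the same order, and Parp14 0.173, 0.227, 0.66 and 0.797.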

How the data were processed

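RNA-seq was performed by the authors on 12 samples in 4 groups of 3, with libraries made with a NEBNext Ultra kit. The authors mapped reads to mm10 with Hisat2, counted uniquely mapped reads per gene with FeatureCounts and deposited FPKM values rounded to 0.01, in a table for each condition. The program that computed FPKM is not given in the sources used here. Columns with the authors' own comparisons (fold change, p and q values, significance marks) were set aside. Columns of single samples that were left out numbered 0. Depth is unknown, so no counting error is given.

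Groups follow the sample titles. No further scaling was applied, and log2(FPKM + 0.1) was analysed. Genes whose FPKM averaged 0.1 or more in the samples of a fit were tested with limma 3.58.1 in R 4.3.3 (moderated variance with a trend, two-sided, Benjamini-Hochberg over all tested genes, called under 0.05). NAD+ was compared with Ctrl in the 6 samples of each condition. The difference of both effects and differentiation against proliferation came from a fit of all 12 samples. Exact permutation tests used the difference of means. Alternatives were another number added, other filters, median-ratio scaling, quantile normalization, the replicate number as a block, a rule of unadjusted p under 0.05 with a ratio over 2, and leaving out each sample. The code was tested on simulated data.

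The 10 members and the lists were chosen with earlier results of these data known. All members are named, and from each list the called genes with the largest changes and a mean FPKM of at least 1, at most 3 per direction, together with Hpf1, Parg and Dtx3l. A few list genes are not reported here and were left out of their lists. Xrcc1, Gfap, S100b, Slc1a2, Aldh1l1, Aqp4 and Dcx were named after their values were seen. The 3 genes most like Parp1 and most like Parp14 had the smallest mean absolute difference of centred log2 values. Positions come from GENCODE M21 (mm10) and promoters from RefSeq (GRCm38.p6). Python 3.11.15, pandas 2.3.3, numpy 2.4.6, scipy 1.17.1 and matplotlib 3.10.9 were used.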

Additional observations from a re-analysis of the deposited data

How the results depend on the processing

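The calls of Parp1, Parp10, Parp12, Parp14 and Parp4 between differentiation and proliferating Ctrl cells held in every other fit in which these genes were tested, with the same direction, whereas the rule of unadjusted p and ratio below kept only Parp10 and Parp14. Parp10, Parp14 and Parp16 have a mean FPKM under 1 and were not tested with that minimum. Parp6 was no longer called without the filter (limma adjusted p 0.0576) or with the replicate block (0.0536), and without single samples its fold change lay between 0.24 and 0.34 and that of Parp3 between 0.44 and 0.66. With an unadjusted p under 0.05 and a ratio over 2, 2 members and 6058 genes were called, against 7 and 11048, and leaving out single samples gave 5 to 7 members and 9946 to 11080 genes. Parp16 changed sign with quantile normalization (-0.067), in the NAD+ samples (-0.054, chosen after seeing the data) and without single samples (-0.024 to 0.23).

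For NAD+ under differentiation conditions, a minimum mean FPKM of 1 gave 1 called member, Parp1. All genes called numbered 1357, or 795 by the rule of unadjusted p and ratio, and 328 to 719 without single samples. Parp4 turned to 0.062 with median-ratio scaling and to 0.071 with quantile normalization, which also turned Parp9 to 0.019 and Parp16 to 0.019. Without single samples Parp9 lay between -0.17 and 0.055, Parp4 between -0.080 and 0.023 and Parp16 between -0.22 and 0.080. For NAD+ in proliferating cells, 27 genes were called, against 9 without the filter, 75 with a minimum of 1, 60 with quantile normalization, 559 by the rule of unadjusted p and ratio, and 0 to 36 without single samples. Parp16 turned to -0.0032 with median-ratio scaling and Parp6 to -0.012 with quantile normalization. Without single samples Parp1 lay between -0.039 and 0.21, Parp10 between -0.042 and 0.49, Parp4 between -0.028 and 0.24 and Parp16 between -0.042 and 0.15.

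For the difference of the NAD+ effect, 91 genes were called, 139 with 1 added before log2 and 12 to 195 without single samples. With 1 added, Parp10 turned to 0.018 and Parp14 to 0.050. With median-ratio scaling Parp3 turned to 0.079, Parp10 to 0.056, Parp14 to 0.11, Parp4 to 0.023 and Parp6 to 0.13, and with quantile normalization to 0.087, 0.092, 0.17, 0.073 and 0.18, and Parp16 to 0.0043. Without single samples the ranges that spanned 0 were -0.20 to 0.043 (Parp3), -0.36 to 0.17 (Parp10), -0.13 to 0.19 (Parp12), -0.17 to 0.11 (Parp14), -0.26 to 0.0092 (Parp4), -0.065 to 0.069 (Parp6) and -0.28 to 0.023 (Parp16). Of the genes called, 47.3% were higher, or 74.2% with median-ratio scaling, and in proliferating cells 33.3%, or 21.2%. The causes of these changes were not tested.

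Same-numbered samples of a condition correlated, around their group means, at 0.0215 to 0.111 under proliferating and 0.0257 to 0.0432 under differentiation conditions. Differently numbered samples correlated at -0.112 to 0.0734 and at -0.0397 to -0.0025, which lay below the same-numbered ones under differentiation conditions. These values do not settle whether the numbers pair the samples, and the main fits left them unpaired. With the replicate block 0, 0, 0 and 6 members were called for NAD+ in proliferating cells, NAD+ under differentiation conditions, their difference and differentiation, and 0, 758, 26 and 10903 of all genes. The 3 samples per group and the unknown depth limit the precision of the low genes Parp10, Parp14 and Parp16.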
